A study of Mus musculus with 12 samples.

Results

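The mRNA decay machinery was represented by 44 genes of the 17419 in the deposited table, chosen by gene symbol as the factors that shorten the poly(A) tail, remove the cap, degrade the body of an mRNA or carry out nonsense-mediated decay. They were 10 genes of the Ccr4-Not complex, 3 other deadenylases, 4 genes for poly(A) binding and Tob proteins, 5 decapping genes, 2 5'-3' exonucleases, 12 exosome and exosome-related genes and 8 genes of nonsense-mediated decay. They were measured in wild-type NIH-3T3 cells, immortalised mouse fibroblasts, given the uridine analogue 4-thiouridine (4sU) at 800 µM for 15, 30, 60, 90 or 120 min, or left without it (no4sU). Replicates A and B of the 6 groups gave 12 libraries, and the series title gives the purpose as learning how the length of labelling biases quantification. All samples carry the same SLAM-seq protocol, in which iodoacetamide alkylates 4sU so that it is sequenced as C, and those conversions give an estimate of a gene's new-to-total ratio (NTR), the part of its RNA that was made while 4sU was present. No agent blocked transcription, so an NTR reflects both synthesis and decay, and no protein was measured.

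In the cytoplasm most mRNAs are degraded after their poly(A) tail has been shortened, by Pan2-Pan3 and by the Ccr4 and Caf1 nucleases of the Ccr4-Not complex. The body is then degraded from the 5' end, after Dcp2 and its coactivators have removed the cap for Xrn1, or from the 3' end by the exosome. Nonsense-mediated decay, driven by the helicase Upf1, routes transcripts with premature stop codons to the same nucleases. Each factor is itself made from an mRNA that is subject to these routes, and the values below describe those mRNAs.

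Library totals were between 9917026 and 13739380 reads. Levels are given as CPM, counts scaled to a common library size, and NTR measures used genes averaging at least 100 reads per library, as did 9065 genes and 43 of the 44 decay genes. The exception was Dcp1b, a second Dcp1 coactivator, with a mean count of 14.7. The fibroblast markers Col1a1, Col1a2, Col3a1, Fn1, Vim, Thy1, Pdgfra, Pdgfrb and S100a4 were detected in every library, from 78.3 to 8327 CPM, while Fap reached at most 0.0754 CPM. Of the markers of other cell types with an entry, Krt8, Cdh1, Ptprc, Pecam1 and Kdr stayed at or below 0.388 CPM, Cdh5 was between 0.661 and 1.55 CPM and Cd68 between 4.20 and 6.76 CPM. The no4sU replicates of the decay genes lay further apart than labelled ones. Their log2 ratios of A to B had an SD across 43 genes of 0.21 in no4sU and of 0.09 to 0.12 in the labelled groups, and in no4sU these ratios had a Spearman's correlation of -0.605 with the deposited gene length, so longer decay genes were lower in no4sU replicate A. RNA came from whole cultures, so fewer cells with a transcript and less of it per cell cannot be told apart.

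From 30 min on the decay genes had a higher median NTR than all genes. For 15, 30, 60, 90 and 120 min of labelling, their median NTR was 0.00895 ± 0.00375 (SD, n = 2), 0.0625 ± 0.000566, 0.184 ± 0.00778, 0.296 ± 0.0228 and 0.425 ± 0.00368. Over all 9065 genes the medians were 0.0101, 0.0521, 0.155, 0.244 and 0.354 for these times. The medians were thus furthest apart at the longest labelling. Among the 43 decay genes 29 lay at 120 min above the median of all genes, 9 above its 75th percentile of 0.603 and 5 above its 90th percentile of 0.852, while 5 lay below the 25th percentile of 0.205 and 0 below the 10th percentile of 0.134. The median percentile of the 43 genes among all genes was 59.1. This is a description of a list chosen by function, with no test of the list.

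The genes differed from each other far more than replicates did, from an NTR of 0.170 to 1 at 120 min. By role, the median NTR at 120 min was 0.807 ± 0.000849 (SD, n = 2) for the 4 measured decapping genes, 0.568 ± 0.00354 for the poly(A) binding and Tob proteins, 0.503 ± 0.0231 for the Ccr4-Not complex and 0.481 ± 0.00587 for nonsense-mediated decay. It was 0.392 ± 0.0434 for the other deadenylases, 0.337 ± 0.0143 for the exosome and 0.311 ± 0.00587 for the 5'-3' exonucleases. These SDs are between the medians of 2 libraries and do not give the spread between genes. No poly(A) binding or Tob gene lay near the median of its group, with Pabpc1 and Pabpc4 at 0.170 and 0.200 and Tob1 and Tob2 at 0.936 and 1. The ranges of these groups overlapped, and neighbours in the order of genes did not differ beyond the authors' intervals. In 0 of 42 neighbouring pairs did the authors' 90% intervals lie apart in both libraries.

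**Figure D1:**
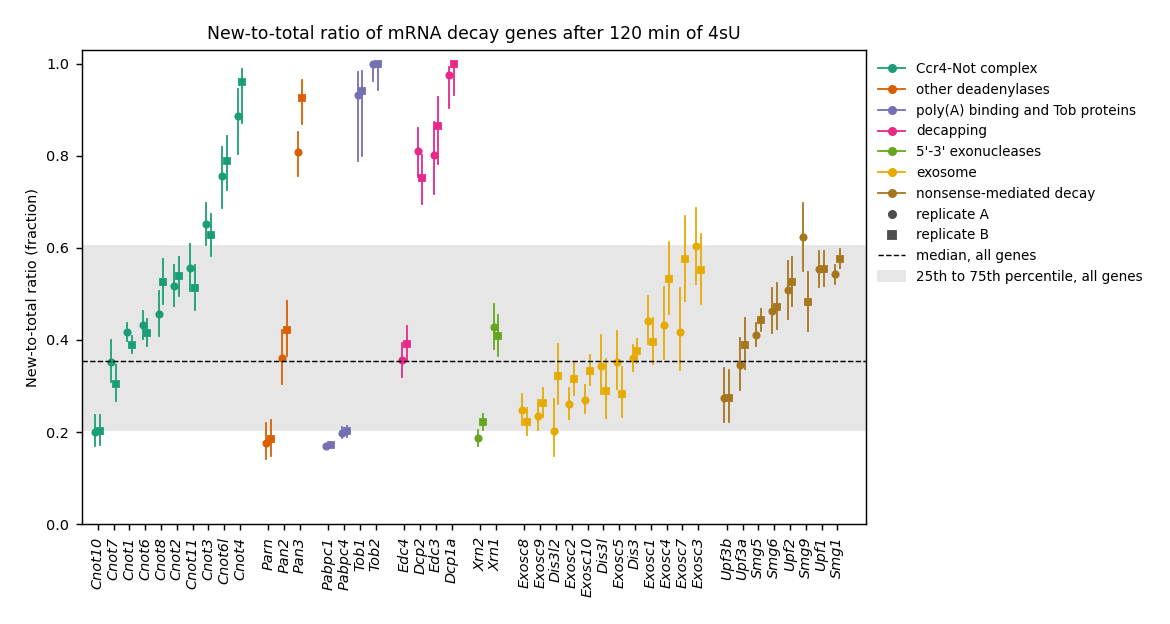
New-to-total ratio (fraction, y axis) of the 43 decay genes averaging at least 100 reads per library after 120 min of 4sU, grouped by role (x axis), with replicate A as circles, replicate B as squares and the authors' 90% intervals as bars. The dashed line and the grey band are the median (0.354) and the 25th to 75th percentiles (0.205 to 0.603) of 9065 genes, and 3 of the 4 decapping genes and both Tob genes lie above the band.

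The order of the genes at 120 min was close to that at 60 min, less so to that at 30 min and least to that at 15 min. Across the 43 genes, which share their libraries, Spearman's correlation with the NTR at 120 min was 0.918 for the NTR at 60 min, 0.670 at 30 min and 0.330 at 15 min. At 15 min the NTR was 0 for 8 of the 43 genes in replicate A and for 8 in replicate B. The order at 15 min is therefore given no weight here, and no NTR of the unlabelled libraries was used as a background.

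Within the Ccr4-Not complex the NTR at 120 min ran from 0.201 for Cnot10 to 0.923 for Cnot4. Cnot4, an E3 ubiquitin ligase associated with the complex, had an NTR of 0 and 0.00870 (15 min), 0.0964 and 0.163 (30 min), 0.363 and 0.329 (60 min), 0.660 and 0.660 (90 min) and 0.886 and 0.959 (120 min) in replicates A and B. Cnot6l, a Ccr4-type deadenylase subunit, had 0.0103 and 0.00410 (15 min), 0.102 and 0.114 (30 min), 0.294 and 0.329 (60 min), 0.590 and 0.436 (90 min) and 0.756 and 0.789 (120 min). Cnot10, which binds the N-terminal part of the scaffold, had 0.0600 and 0.0351 (15 min), 0.0655 and 0.0914 (30 min), 0.147 and 0.124 (60 min), 0.190 and 0.160 (90 min) and 0.200 and 0.202 (120 min). At 120 min these genes were thus far apart, and their A and B values did not overlap. The scaffold gene Cnot1 was at 0.417 and 0.390, Cnot2 at 0.517 and 0.538 and Cnot3 at 0.652 and 0.627 at 120 min, so that subunits of 1 complex differed widely. Cnot11, the partner of the Cnot10 protein, was at 0.557 and 0.513, above Cnot10 in both libraries.

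Of the other deadenylases, Pan3, the adaptor of the Pan2-Pan3 complex, had an NTR of 0.0459 and 0.0193 (15 min), 0.114 and 0.0975 (30 min), 0.448 and 0.405 (60 min), 0.672 and 0.625 (90 min) and 0.807 and 0.925 (120 min). Its catalytic partner Pan2 was at 0.361 and 0.422 at 120 min, below Pan3 in both libraries. Parn, the poly(A)-specific ribonuclease, had 0 and 0.00600 (15 min), 0.0161 and 0.0386 (30 min), 0.0864 and 0.0678 (60 min), 0.164 and 0.107 (90 min) and 0.176 and 0.184 (120 min) and was the second lowest of the 43 genes.

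The poly(A) binding and Tob genes took both ends of the order. Tob2, which like Tob1 encodes an antiproliferative protein that links poly(A) binding protein to the Caf1 deadenylases, had an NTR of 0.0613 and 0.0421 (15 min), 0.249 and 0.330 (30 min), 0.644 and 0.675 (60 min), 0.896 and 0.868 (90 min) and 1 and 1 (120 min). Tob1 had 0.111 and 0.0211 (15 min), 0.322 and 0.240 (30 min), 0.645 and 0.553 (60 min), 0.963 and 0.684 (90 min) and 0.933 and 0.940 (120 min), with 90% intervals at 120 min of 0.788 to 0.982 in A and 0.800 to 0.984 in B, and a mean count of 119. Both Tob genes were among the 3 highest of the 43. Pabpc1, the main cytoplasmic poly(A) binding protein, had 0.0108 and 0.00630 (15 min), 0.0366 and 0.0327 (30 min), 0.0772 and 0.0861 (60 min), 0.125 and 0.118 (90 min) and 0.169 and 0.171 (120 min). Pabpc4 had 0.00850 and 0.00810 (15 min), 0.0418 and 0.0339 (30 min), 0.0930 and 0.122 (60 min), 0.163 and 0.152 (90 min) and 0.199 and 0.201 (120 min). The highest NTR of the 43 genes was that of Tob2 and the lowest that of Pabpc1, whose 90% intervals at 120 min were 0.164 to 0.174 in A and 0.167 to 0.176 in B.

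Among the decapping genes, Dcp1a, a coactivator of Dcp2, had an NTR of 0.0306 and 0.0118 (15 min), 0.281 and 0.155 (30 min), 0.627 and 0.547 (60 min), 0.828 and 0.752 (90 min) and 0.975 and 1 (120 min). Dcp2, the decapping enzyme, was at 0.811 and 0.751 at 120 min, and Edc3, an enhancer of decapping, at 0.803 and 0.865. Edc4, the scaffold of the decapping complex, was at 0.355 and 0.392, below the other 3 genes in both libraries. The NTR of Dcp1b is not interpreted, since its 90% interval at 120 min in replicate A ran from 0.238 to 0.910.

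The exonucleases, the exosome and nonsense-mediated decay had lower NTR values than the Tob genes and most decapping genes. Xrn2, the nuclear 5'-3' exonuclease, was at 0.186 and 0.222 and Xrn1, the cytoplasmic one, at 0.427 and 0.408 at 120 min. The 12 exosome genes ranged from 0.235 for Exosc8, a subunit of the ring, to 0.579 for Exosc3, a subunit of the cap. The catalytic genes Dis3 and Exosc10 were at 0.360 and 0.375 and at 0.271 and 0.333, in the order A and B. The 8 genes of nonsense-mediated decay ranged from 0.274 for Upf3b to 0.560 for Smg1, the kinase that phosphorylates Upf1. Upf1 was at 0.554 and 0.554, and the endonuclease gene Smg6 at 0.463 and 0.472.

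Expressed as an apparent half-life, calculated for a constant RNA level as the time of labelling times ln 2 over -ln(1-NTR), these values spanned hours to minutes. At 120 min the apparent half-life was 446 ± 5.30 min (SD, n = 2) for Pabpc1, 419.6 ± 14.6 min for Parn, 373 ± 3.99 min for Pabpc4, 371 ± 2.20 min for Cnot10 and 368 ± 51.0 min for Xrn2. It was 56.2 ± 3.79 min for Cnot6l, 54.9 ± 6.99 min for Dcp2, 46.4 ± 6.87 min for Edc3, 41.3 ± 13.1 min for Pan3, 32.2 ± 8.76 min for Cnot4 and 30.2 ± 0.889 min for Tob1. The small SD of Tob1 understates its uncertainty, at a mean count of 119. The lower ends of the authors' intervals for its NTR at 120 min allow up to 53.6 and 51.7 min in replicates A and B. From the 90 min libraries Tob1 had 18.9 and 54.2 min. Tob2 in both libraries and Dcp1a in replicate B were too close to an NTR of 1 for a value at 120 min, and Dcp1a had 22.7 min in replicate A. At 60 min they had 38.6 ± 2.32 min and 47.4 ± 7.27 min. The counts of Cnot6l, Dcp2, Edc3, Pan3, Cnot4, Tob2 and Dcp1a were lower at 120 than at 15 min, as given below. A constant level was thus not seen for these genes.

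The apparent half-life depended on the duration used. The median over the decay genes was 322 ± 3.01 min (SD, n = 2) from the 30 min libraries, 205 ± 9.59 min from 60 min, 179 ± 16.5 min from 90 min and 153 ± 2.61 min from 120 min. Of 41 genes with a value at both times, 37 had a longer half-life at 60 than at 120 min, with a median ratio of 1.44. The exceptions were Cnot10, Pabpc4, Exosc2 and Exosc8.

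Which of 2 related genes had the higher NTR, a share and not an amount of new RNA, was tested for 7 pairs of paralogs, with an exact sign-flip permutation test (two-sided) of the mean difference in NTR over the 10 labelled libraries, paired within a library. The smallest p it can give is 0.00195, p-values were adjusted over the 7 pairs, and the libraries cover 5 durations, so that the mean difference averages over time. Cnot6l had a higher NTR than Cnot6, Cnot8 than Cnot7, Pabpc4 than Pabpc1, Upf3a than Upf3b, Xrn1 than Xrn2 and Dis3 than Dis3l. In these 6 of the 7 pairs the difference passed an adjusted p of 0.05. An eighth pair, Dcp1a and Dcp1b, was not tested because of the low count of Dcp1b.

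Cnot6 and Cnot6l encode alternative Ccr4 subunits. The NTR of Cnot6 was 0.0159 and 0.00680 (15 min), 0.0619 and 0.0629 (30 min), 0.184 and 0.177 (60 min), 0.317 and 0.279 (90 min) and 0.432 and 0.415 (120 min), so that Cnot6l, whose values are given above, was higher in all 8 libraries from 30 min on. Over the 10 libraries Cnot6 was lower by a mean NTR difference of -0.147 ± 0.136 (SD over libraries, exact permutation p = 0.00781, adjusted p = 0.0109), and lower in 8 of 10. The apparent half-life at 120 min was 151 ± 5.65 min (SD, n = 2) for Cnot6 against 56.2 ± 3.79 min for Cnot6l.

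Cnot7 and Cnot8 encode alternative Caf1 subunits. Cnot7 had an NTR of 0.0253 and 0.0123 (15 min), 0.0353 and 0.0695 (30 min), 0.161 and 0.145 (60 min), 0.211 and 0.278 (90 min) and 0.352 and 0.305 (120 min). Cnot8 had 0.0116 and 0.0191 (15 min), 0.0670 and 0.0880 (30 min), 0.183 and 0.200 (60 min), 0.379 and 0.305 (90 min) and 0.456 and 0.526 (120 min). Cnot7 was lower in 9 of the 10 libraries, by a mean difference of -0.0641 ± 0.0765 (SD, exact permutation p = 0.00586, adjusted p = 0.0109). In both catalytic positions of the complex, the alternative genes thus differed in their share of new RNA.

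Xrn1 had an NTR of 0.00350 and 0.0134 (15 min), 0.0621 and 0.0404 (30 min), 0.190 and 0.196 (60 min), 0.287 and 0.266 (90 min) and 0.427 and 0.408 (120 min). Xrn2 had 0.0001 and 0.00730 (15 min), 0.0174 and 0.0192 (30 min), 0.0787 and 0.0906 (60 min), 0.170 and 0.151 (90 min) and 0.186 and 0.222 (120 min). Xrn1 was higher in 10 of 10 libraries, by 0.0952 ± 0.0784 (SD, exact permutation p = 0.00195, the smallest possible, adjusted p = 0.0109).

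Upf3a and Upf3b encode alternative links between Upf2 and the exon junction complex. Upf3a had an NTR of 0.0109 and 0.00440 (15 min), 0.0641 and 0.162 (30 min), 0.203 and 0.198 (60 min), 0.262 and 0.211 (90 min) and 0.345 and 0.390 (120 min). Upf3b had 0.00620 and 0 (15 min), 0.0218 and 0.0451 (30 min), 0.112 and 0.0948 (60 min), 0.156 and 0.220 (90 min) and 0.275 and 0.274 (120 min). Upf3a was higher in 9 of 10 libraries, by 0.0644 ± 0.0498 (SD, exact permutation p = 0.00977, adjusted p = 0.0114).

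Dis3 and Dis3l encode alternative catalytic subunits of the exosome, Dis3l that of the cytoplasm. Dis3 had an NTR of 0.0244 and 0.00890 (15 min), 0.0584 and 0.0810 (30 min), 0.180 and 0.193 (60 min), 0.281 and 0.255 (90 min) and 0.360 and 0.375 (120 min). Dis3l had 0.0319 and 0 (15 min), 0.0391 and 0.0529 (30 min), 0.0695 and 0.101 (60 min), 0.229 and 0.158 (90 min) and 0.343 and 0.289 (120 min). Dis3 was higher in 9 of 10 libraries, by 0.0502 ± 0.0426 (SD, exact permutation p = 0.00391, adjusted p = 0.0109), but with the authors' posterior mean as the NTR the adjusted p was 0.0501, and it was higher in 7 of 10.

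Pabpc1 was lower than Pabpc4 in 9 of 10 libraries, by a small mean difference of -0.0190 ± 0.0163 (SD, exact permutation p = 0.00781, adjusted p = 0.0109). Tob1 and Tob2 differed by -0.0354 ± 0.0852 (SD, exact permutation p = 0.223), with Tob1 lower in 6 of 10 libraries. That difference was within the spread between libraries, which does not show the Tob genes to be alike. Reads of closely related genes can be divided between them in counting, and the error of such a division is not in these values.

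**Figure D2:**
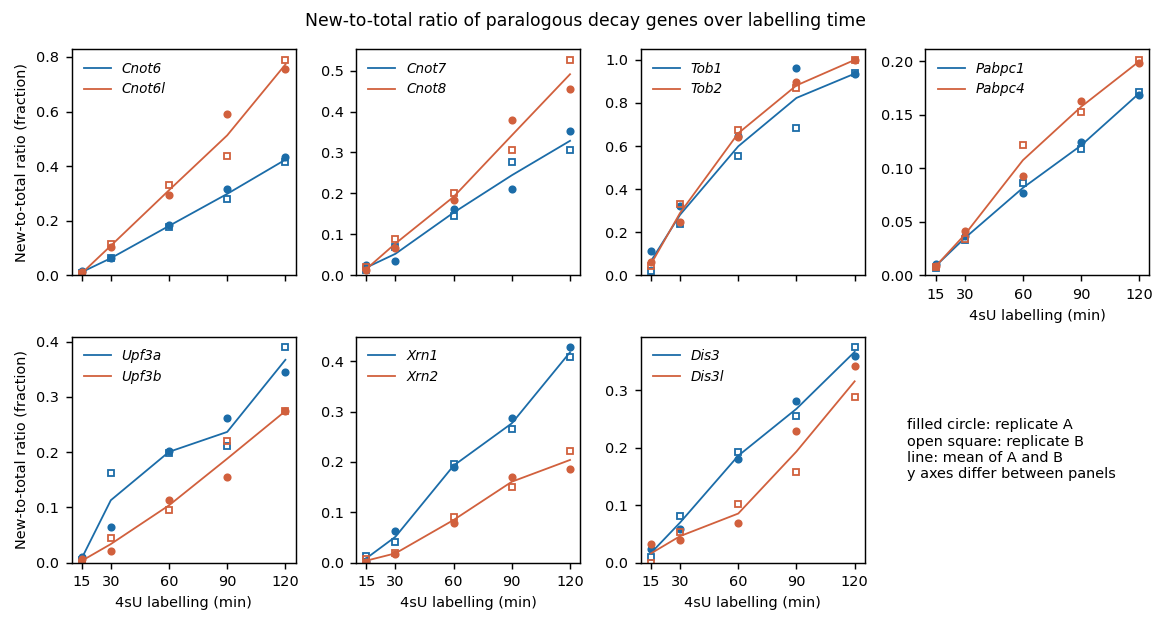
New-to-total ratio (fraction, y axis, with a scale for each panel) against labelling time (min, x axis) for the 7 tested pairs of paralogs, with filled circles for replicate A, open squares for replicate B and lines through the mean. Cnot6l lies above Cnot6 and Xrn1 above Xrn2 in both replicates from 30 to 120 min, while the points of Tob1 and Tob2 overlap.

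The decay genes differed widely in abundance. Levels per length are given as RPKM, the CPM per kilobase of the deposited gene length. At 15 min they spanned a ratio of 203, from 656 ± 18.2 (SD, n = 2) for Pabpc1 to 3.24 ± 0.0684 for Dis3l2, a nuclease that acts outside the exosome. Pabpc4 was at 131 ± 2.17, Xrn2 at 60.3 ± 1.06 and Smg5, which binds phosphorylated Upf1, at 42.2 ± 0.0383. The decapping genes Dcp2, Dcp1a and Edc3 were at 6.22 ± 0.221, 8.21 ± 0.196 and 4.40 ± 0.311. Across the 43 genes, Spearman's correlation between the level at 15 min and the NTR at 120 min was -0.346, and -0.401 across 9065 genes.

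The level multiplied by the NTR at 60 min gives the amount of new RNA per length at that time. It was 55.1 ± 3.71 RPKM (SD, n = 2) for Pabpc1, 14.3 ± 2.59 for Pabpc4, 10.3 ± 0.0641 for Tob2, 8.89 ± 0.0791 for Smg5 and 6.27 ± 0.478 for Cnot1. Tob2 was the 20th of the 43 genes by level and the third by new RNA at 60 min. Pabpc1 remained first by both measures although its NTR was the lowest. Within pairs the gene with the lower NTR had the larger amount for Cnot6 (3.68 ± 0.0112 against 1.54 ± 0.0733 RPKM for Cnot6l), Pabpc1 and Xrn2 (5.17 ± 0.672 against 0.957 ± 0.0996 RPKM for Xrn1), differences in amount that were not tested.

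Whether read counts of the decay genes changed with labelling time was asked first by setting 120 min against 15 min. At 120 min 12 of the 44 genes were lower and 0 were higher, and they included 4 of the 5 decapping genes and 5 of the 10 Ccr4-Not genes. Calls were made with the quasi-likelihood test of edgeR at an adjusted p below 0.05 (Benjamini-Hochberg over 11564 genes). Over all genes tested, 19.3% were called, 11.3% lower and 7.93% higher. The median log2 fold change was -0.09 over the 44 genes and 0.01 over all genes. At an unadjusted p under 0.05 by edgeR 16 were lower and 2, Pabpc1 and Pabpc4, were higher. DESeq2 called 7 of the 12 lower and 0 higher, where 7.73% of all genes were lower and 4.97% higher. The same 2 genes were higher at an unadjusted p under 0.05 by DESeq2.

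By role, the lower genes were Cnot1, Cnot2, Cnot4, Cnot6 and Cnot6l of the Ccr4-Not complex, Pan3 of 3 other deadenylases, Tob2 of the 4 poly(A) binding and Tob genes, Dcp1a, Dcp1b, Dcp2 and Edc3 of 5 decapping genes, and Upf1 of 8 genes of nonsense-mediated decay. Of these, Cnot4, Dcp1b, Edc3, Pan3 and Upf1 were not called by DESeq2, which gave Dcp1b no adjusted p. Of the 12 exosome genes 0 were called by edgeR or DESeq2, and Dis3 was the only 1 with an unadjusted p under 0.05 by either tool, with log2 fold changes from -0.21 for Dis3 to 0.13 for Exosc5, and of the 5'-3' exonucleases 0 of 2 were called, with Xrn1 at an unadjusted p under 0.05 by edgeR and 0 genes by DESeq2. Xrn1 was at -0.22 ± 0.100 (SE, edgeR adjusted p = 0.125) and Dis3 at -0.21 ± 0.0786 (SE, edgeR adjusted p = 0.0687).

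Cnot6l had the largest fall among genes averaging at least 100 reads. Cnot6l (ENSMUSG00000034724) was at 40.9 and 49.5 CPM (no4sU), 46.6 and 47.5 (15 min), 48.8 and 48.1 (30 min), 43.2 and 41.3 (60 min), 38.5 and 32.6 (90 min) and 25.7 and 28.4 (120 min), in the order A and B. The 120 min libraries lay below all others, and the 90 min libraries below those at 15 and 30 min. The log2 fold change was -0.79 ± 0.0992 (SE, edgeR adjusted p = 4.56e-05). Its paralog Cnot6 (ENSMUSG00000020362) was at 99.4 and 128 CPM (no4sU), 116 and 121 (15 min), 120.4 and 128 (30 min), 114 and 119 (60 min), 109.7 and 109 (90 min) and 98.3 and 99.1 (120 min). For Cnot6 the 120 min libraries were below every labelled library and no4sU replicate A was nearly as low, with a log2 fold change of -0.26 ± 0.0837 (SE, edgeR adjusted p = 0.0330).

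The decapping genes Dcp1a and Dcp2 were next. Dcp1a (ENSMUSG00000021962) was at 46.0 and 48.0 CPM (no4sU), 45.0 and 46.6 (15 min), 44.7 and 43.0 (30 min), 39.6 and 41.1 (60 min), 35.4 and 37.2 (90 min) and 33.3 and 32.4 (120 min), and every mean from 30 min on was below the one before. From 15 to 120 min it changed by -0.48 ± 0.0771 (SE, edgeR adjusted p = 0.000421) on the log2 scale. Dcp2 (ENSMUSG00000024472) was at 41.9 and 54.0 CPM (no4sU), 54.9 and 52.3 (15 min), 55.1 and 51.6 (30 min), 47.5 and 48.8 (60 min), 40.1 and 40.6 (90 min) and 39.1 and 40.1 (120 min), and its 90 and 120 min libraries lay below all libraries of the other groups. The log2 fold change of Dcp2 was -0.43 ± 0.0933 (SE, edgeR adjusted p = 0.00338). Edc3 (ENSMUSG00000038957) was at 25.2 and 25.3 CPM (no4sU), 26.4 and 23.9 (15 min), 27.4 and 25.7 (30 min), 24.6 and 24.3 (60 min), 24.8 and 23.3 (90 min) and 19.1 and 22.0 (120 min), with both 120 min libraries below the rest and a log2 fold change of -0.29 ± 0.0997 (SE, edgeR adjusted p = 0.0499), at the edge of the threshold. Dcp1b was at 1.70 and 1.72 CPM (no4sU), 2.29 and 1.27 (15 min), 1.59 and 1.40 (30 min), 0.991 and 1.36 (60 min), 0.873 and 0.676 (90 min) and 0.837 and 0.675 (120 min), with -1.24 ± 0.381 (SE, edgeR adjusted p = 0.0281), on few reads.

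Of the remaining Ccr4-Not genes, Cnot2 (ENSMUSG00000020166) was at 74.7 and 82.4 CPM (no4sU), 80.8 and 80.0 (15 min), 75.5 and 75.3 (30 min), 83.0 and 80.0 (60 min), 69.5 and 73.6 (90 min) and 60.2 and 61.2 (120 min). Its 120 min libraries were the lowest of all and close to each other, and Cnot2 changed by -0.40 ± 0.0674 (SE, edgeR adjusted p = 0.000575) on the log2 scale. Cnot4 (ENSMUSG00000038784) was at 28.1 and 28.1 CPM (no4sU), 29.1 and 26.2 (15 min), 28.9 and 29.0 (30 min), 27.9 and 27.9 (60 min), 24.6 and 21.2 (90 min) and 23.2 and 20.1 (120 min), with 90 and 120 min libraries all below the rest and overlapping each other. The log2 fold change of Cnot4 was -0.36 ± 0.101 (SE, edgeR adjusted p = 0.0177). Cnot1 (ENSMUSG00000036550) was at 274 and 319 CPM (no4sU), 326 and 325 (15 min), 320.4 and 323 (30 min), 327 and 311 (60 min), 315 and 313 (90 min) and 282 and 272 (120 min), where no4sU replicate A lay between the 120 min libraries. Its log2 fold change was -0.23 ± 0.0607 (SE, edgeR adjusted p = 0.0115).

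Tob2 (ENSMUSG00000048546) was at 71.1 and 73.5 CPM (no4sU), 72.8 and 73.0 (15 min), 70.5 and 70.0 (30 min), 66.4 and 63.9 (60 min), 64.4 and 59.8 (90 min) and 62.7 and 55.5 (120 min), and the 15 min libraries lay above those at 60, 90 and 120 min. The change of Tob2 on the log2 scale was -0.31 ± 0.0714 (SE, edgeR adjusted p = 0.00585). Pan3 (ENSMUSG00000029647) was at 51.8 and 58.3 CPM (no4sU), 59.1 and 49.4 (15 min), 52.9 and 54.6 (30 min), 48.4 and 47.1 (60 min), 46.0 and 46.6 (90 min) and 46.9 and 42.5 (120 min), with its 15 min libraries far apart, so that 15 min replicate B was close to the 60 min libraries. Its log2 fold change was -0.29 ± 0.0879 (SE, edgeR adjusted p = 0.0283). Upf1 was at 119 and 113 CPM at 15 min and 104 and 97.1 at 120 min, with -0.21 ± 0.0721 (SE, edgeR adjusted p = 0.0493).

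**Figure D3:**
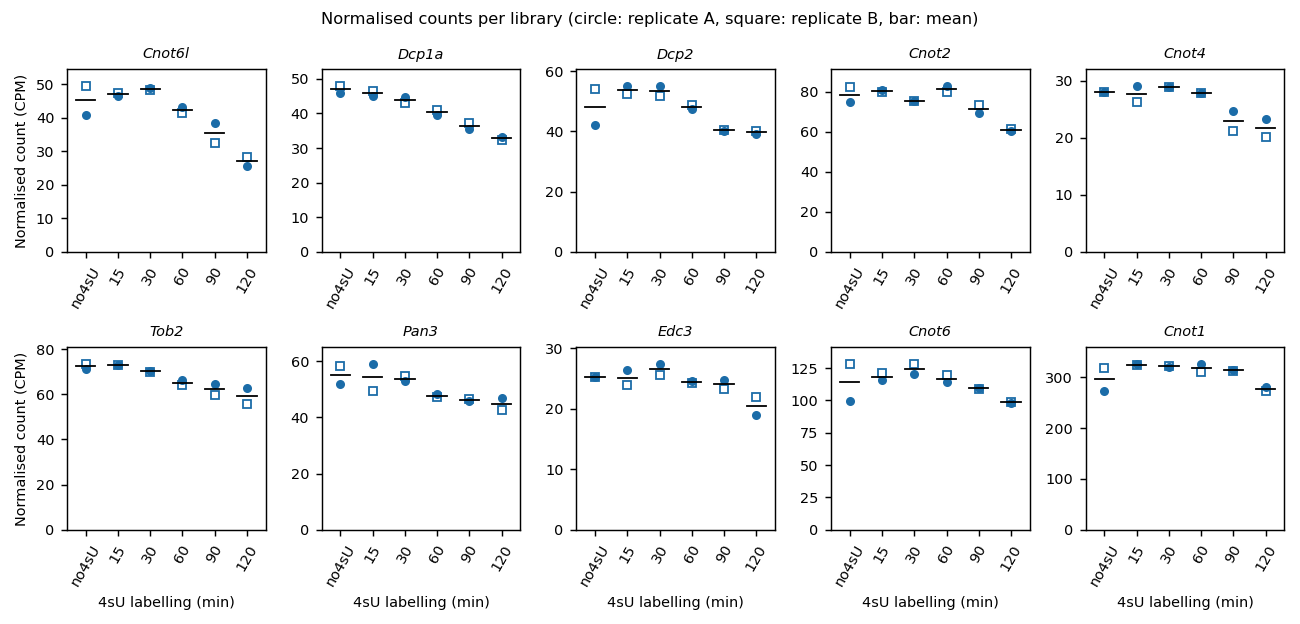
Normalised count (CPM, y axis from 0) of the 10 decay genes with the largest falls from 15 to 120 min among those past the threshold averaging at least 100 reads, by labelling time (min, x axis), with circles for replicate A, squares for replicate B and bars for the mean of 2. The 120 min points of Cnot6l, Dcp1a and Cnot2 lie below all their other points, and for Dcp2, Cnot6 and Cnot1 no4sU replicate A lies below no4sU replicate B.

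The calls rested on few libraries to different degrees. Cnot6l, Cnot2 and Dcp1a passed in all 4 fits that left out 1 of the 15 or 120 min libraries, Dcp2 in 3, Cnot4 and Tob2 in 2, Dcp1b and Pan3 in 1, and Cnot1, Cnot6, Edc3 and Upf1 in 0. Each of these fits left 1 library in a group, and fewer genes were called lower over all genes too. All 12 genes stayed below 0 in each fit, with log2 fold changes from -0.87 to -0.73 for Cnot6l and from -0.41 to -0.15 for Pan3.

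The size of a fall went with the share of new RNA. Across the 43 genes Spearman's correlation between the log2 fold change from 15 to 120 min and the NTR at 120 min was -0.738, and it was -0.763 across 9065 genes, both measures using the same 120 min libraries. The lowest NTR at 120 min among the 11 called genes averaging at least 100 reads was 0.404, that of Cnot1. Tob1, at an NTR of 0.936, was at -0.14 ± 0.137 (SE, edgeR adjusted p = 0.491) on the log2 scale, and Cnot3, at 0.640, at -0.06 ± 0.0678 (SE, edgeR adjusted p = 0.594). Genes of similar NTR could differ in their fall, which was not tested. Cnot6l was at -0.79 and Dcp2 at -0.43 (log2) with NTR of 0.773 and 0.781, and Cnot2 was at -0.40 and Cnot11 at -0.17 with NTR of 0.528 and 0.535.

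When the labelled part of each count, NTR times count, was scaled up by the share whose loss would bring the relation to 0 over all genes in each library (34.1% and 35.6% in 120 min replicates A and B), 2 of the 12 genes still passed. With this scaling 2.07% of all genes were called, 1.24% lower. Cnot6l was then at -0.56 and Cnot2 at -0.31. Tob2 moved to 0.0488 ± 0.0683 and Pan3 to 0.000145 ± 0.0838 (log2, SE). Both lay within their SE of 0, so whether these genes fell depended on that scaling. The scaling factor comes from the same relation across all genes, and whether it measures a loss of labelled RNA was not tested.

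**Figure D4:**
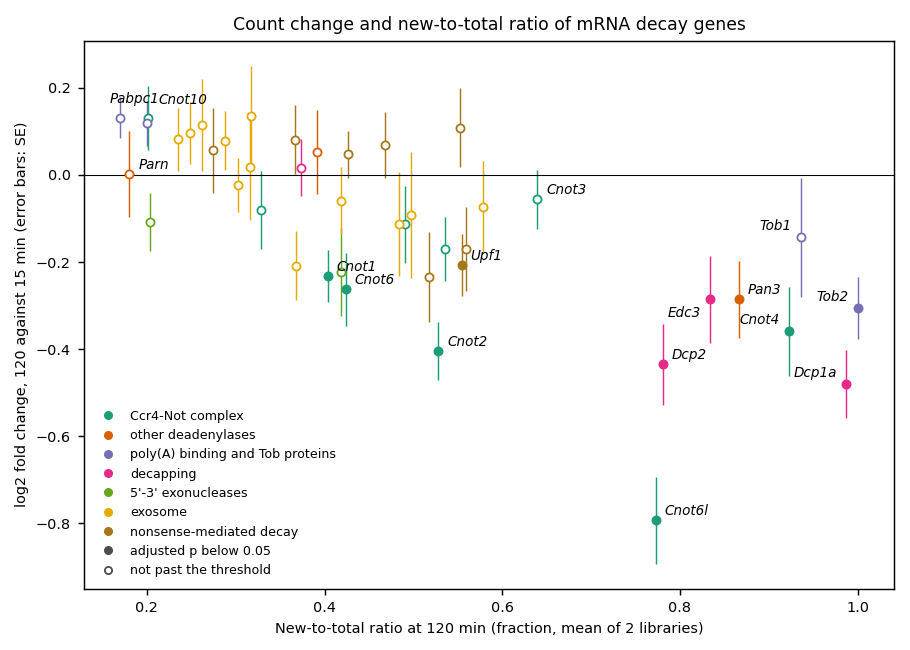
Log2 fold change from 15 to 120 min (y axis, bars are SE) against the new-to-total ratio at 120 min (fraction, x axis) for the 43 decay genes averaging at least 100 reads per library, coloured by role, with filled points for an adjusted p below 0.05. No filled point lies below a ratio of 0.404, and Cnot6l (-0.79) and Cnot2 (-0.40) lie below other genes of similar ratio.

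Set against the unlabelled libraries, 8 of the 44 genes were lower at 120 min and 1, Pabpc1, was higher, where 14.2% of all genes tested were called, 8.78% lower and 5.43% higher. This contrast shares the 120 min libraries with the former one. The 8 lower genes were Cnot6l, Dcp1a, Cnot4, Cnot2, Pan3, Tob2, Dcp2 and Dcp1b, all of them also lower against 15 min. Cnot6l was at -0.74 ± 0.0986 (SE, edgeR adjusted p = 0.000113), Dcp1a at -0.52 ± 0.0761 (SE, edgeR adjusted p = 0.000291) and Cnot2 at -0.37 ± 0.0671 (SE, edgeR adjusted p = 0.00128). Pabpc1 (ENSMUSG00000022283) was at 1902 and 1814 CPM (no4sU), 1950.5 and 1876 (15 min), 1912 and 1866 (30 min), 1983 and 1956 (60 min), 2099 and 2052 (90 min) and 2153 and 2038 (120 min), and its 120 min libraries lay above both no4sU libraries. Its log2 fold change was 0.17 ± 0.0475 (SE, edgeR adjusted p = 0.0202), against 0.13 ± 0.0476 (SE, edgeR adjusted p = 0.0578) from 15 to 120 min. With library-size scaling the rise of Pabpc1 was not past the threshold, and counts as shares of a library cannot separate a rise of Pabpc1 from a fall of other genes.

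The no4sU libraries moved these counts. Without no4sU replicate A 16 of the 44 genes were lower and 3 higher, and without no4sU replicate B 7 were lower and 2 higher. Over all genes 16% were lower and 14.2% higher in the former fit and 7.41% and 8.84% in the latter. Smg1 was among the lower genes without replicate A and among the higher ones without replicate B, so its direction depended on the no4sU library. Fitted without the other groups, 120 min against no4sU gave 2 called genes (1.5% of all genes). Leaving out 120 min replicate A or B left 5 called in each case (3.87% and 3.99% of all genes). Cnot1, Cnot6, Edc3 and Upf1, called against 15 min, had -0.10 ± 0.0607, -0.21 ± 0.0834, -0.29 ± 0.0984 and -0.08 ± 0.0721 (log2, SE) against no4sU, with edgeR adjusted p-values of 0.286, 0.0888, 0.0517 and 0.456.

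At 90 min 3 of the 44 genes were already lower than at 15 min, where 1.06% of all genes tested were called, 1.01% lower and 0.0519% higher. This contrast shares the 15 min libraries with the first. Dcp2 was at -0.41 ± 0.0950 (SE, edgeR adjusted p = 0.0406), Cnot6l at -0.40 ± 0.0976 (SE, edgeR adjusted p = 0.0489) and Dcp1a at -0.33 ± 0.0776 (SE, edgeR adjusted p = 0.0409). The log2 change of Dcp2 was -0.41 at 90 and -0.43 at 120 min, while that of Cnot6l was -0.40 ± 0.0976 at 90 and -0.79 ± 0.0992 at 120 min (log2, SE). The difference between these durations was not tested. These calls were lost when any 1 of the 15 or 90 min libraries was left out, in fits where calls over all genes also became fewer. DESeq2 on all libraries called 1 of the 44 genes, with 0.917% of all genes called.

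Sequence features were looked at after the NTR values had been seen, in the 3' untranslated region (3' UTR) of a reference transcript of each gene from GENCODE M21 (GRCm38), and are descriptions without a test. Several of the decay genes with the highest NTR had long 3' UTRs. Those of Dcp2, Cnot6l, Edc3, Dcp1a, Tob2 and Pan3 were 7240, 6847, 4004, 3757, 2457 and 2115 bases long and those of Cnot4 and Tob1 1303 and 767, against 439 for Pabpc1, 332 for Pabpc4, 452 for Xrn2 and 484 for Cnot10. Within pairs, Cnot6l had 6847 bases and Cnot6 480, but Cnot7, the lower of its pair in NTR, had 1447 and Cnot8 1006. The reference transcript of Cnot6l had the deposited gene length of 8564 bases. Those of Cnot6, Cnot10 and Xrn1 had 2498, 2853 and 5499 bases against deposited lengths of 5736, 4866 and 10256. The reference transcripts of Cnot7, Cnot3 and Exosc1 had 2615, 2822 and 1018 bases against deposited lengths of 3888, 4333 and 2296. Other decay genes differed in length as well. The 3' UTRs taken for such genes may thus differ from those of the RNA counted. Spearman's correlation between 3' UTR length and the NTR at 120 min was 0.529 across 43 decay genes and 0.311 across 8934 genes with a 3' UTR and that count. The median length was 834 bases in the former and 1123 in the latter.

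**Figure D5:**
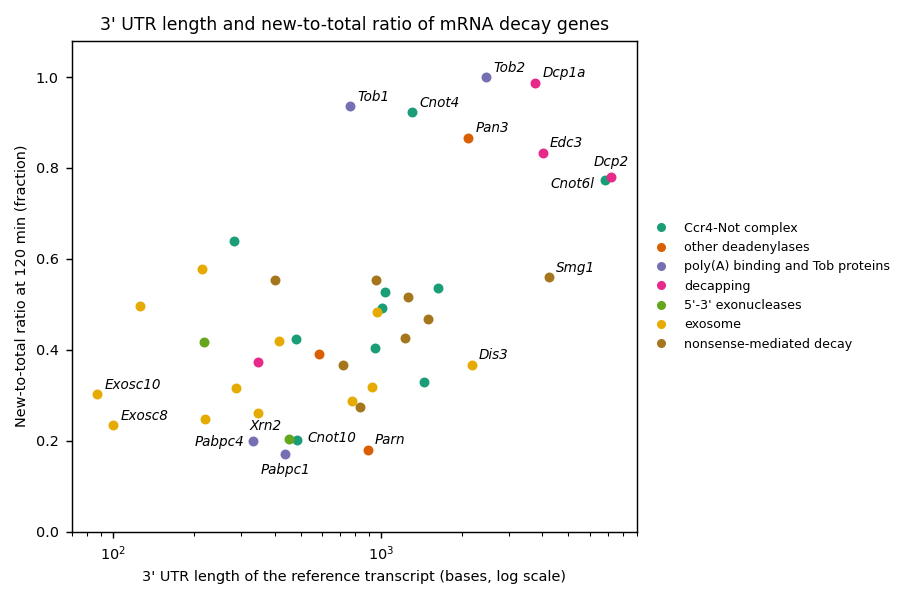
New-to-total ratio at 120 min (fraction, mean of 2 libraries, y axis) against the length of the annotated 3' UTR (bases, log scale, x axis) for the 43 decay genes averaging at least 100 reads per library, coloured by role. Dcp2, Cnot6l, Edc3, Dcp1a, Tob2 and Pan3 combine 3' UTRs of 2115 to 7240 bases with ratios of 0.773 to 1, while Smg1 and Dis3 have long 3' UTRs and ratios of 0.560 and 0.367.

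A longer gene offers more uridines for conversion and more room for any motif, and the part of length and base content in this relation was not tested. Uridine made up a median of 23.9% of the transcripts of the decay genes and 24.5% of those of all genes. Spearman's correlation between that share and the NTR was 0.333 across the decay genes and 0.0429 across all genes.

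Motifs of RNA-binding proteins that recruit the Ccr4-Not complex were searched on the sense strand of the 3' UTR only, as the Pumilio element TGTANATA and the AU-rich nonamer TTATTTATT, whose matches can share at most a single base. The Pumilio element was present in 12 of 43 decay genes (27.9%) and in 27.4% of 8934 genes. The AU-rich nonamer was present in 2 of 43 (4.65%) and in 7.80% of all genes. The shares were thus near the background for the Pumilio element and the nonamer was rare. Over all genes the median NTR at 120 min was 0.476 with and 0.312 without a Pumilio element, but the median 3' UTR length was 2100 bases with and 859 without one.

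The sites below belong to genes whose counts fell with labelling time or which form a tested pair. They are given 5' to 3' on the transcript with the motif in capitals and 8 or 7 bases on each side, positions are on GRCm38, and a match does not show that a protein binds there. Cnot1, Dcp2 and Dis3, which also meet this description, each had a Pumilio element that is not printed.
Dcp1a, Pumilio element, chr14:30524875-30524898, plus strand: tgatagtgTGTAAATAtagcaacc
Dcp1a, Pumilio element (second), chr14:30525249-30525272, plus strand: ttcctcagTGTAGATAcaaacttc
Cnot6l, Pumilio element, chr5:96075178-96075201, minus strand: aagtttgaTGTAAATAaaatattc
Cnot6l, AU-rich nonamer, chr5:96071164-96071186, minus strand: gaagagaTTATTTATTtttgttt
Edc3, Pumilio element, chr9:57750218-57750241, plus strand: actgggtaTGTACATAgagacatg
Edc3, AU-rich nonamer, chr9:57750556-57750578, plus strand: ttctagcTTATTTATTggcttgc
Cnot2, Pumilio element, chr10:116485486-116485509, minus strand: tacgaatgTGTATATAttatatat
Cnot7, Pumilio element, chr8:40493923-40493946, minus strand: cacatgctTGTATATAggttttat
Cnot7, Pumilio element (second), chr8:40492556-40492579, minus strand: aaagctttTGTAAATAaaggcttc
Cnot8, Pumilio element, chr11:58118531-58118554, plus strand: aagatgctTGTAAATAttatttat

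Cnot6l and Edc3 were the genes with an AU-rich nonamer, and both also held a Pumilio element. In the Cnot6l 3' UTR the Pumilio element began at base 1987 and the nonamer at base 6001 of 6847, and in that of Edc3 they began at bases 1731 and 2068 of 4004. Cnot6, the paralog of Cnot6l with the lower NTR, had neither in the 3' UTR of its reference transcript, which was shorter than its deposited gene length. Of the Caf1 pair Cnot7 had 2 Pumilio elements and Cnot8 had 1, and Cnot7 had the lower NTR. The reference transcript of Cnot7 was also shorter than its deposited gene length, at 2615 against 3888 bases. In the Ccr4 pair the gene with more matches had the higher NTR and in the Caf1 pair the lower, which was not tested. Tob2, Tob1, Cnot4 and Pan3, 4 of the 5 highest in NTR, had neither motif in this 3' UTR.

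Other genes of mRNA decay, cofactors and regulators outside the 44, were taken as a list of 81 symbols, of which 75 were in the table, 73 were tested and 71 averaged at least 100 reads. Their median NTR at 120 min was 0.515 ± 0.00219 (SD, n = 2), above that of the 44-gene list. Btg2, Noct and Zc3h12a had the highest NTR, at 1 in both libraries, and Lsm5, Lsm4 and Dcps the lowest, at 0.130 and 0.0984, 0.146 and 0.115 and 0.143 and 0.131. Btg2 is a Tob-family antiproliferative gene, Noct encodes the Ccr4-related protein nocturnin and Zc3h12a the endonuclease Regnase-1. Lsm4 and Lsm5 encode parts of the ring that binds deadenylated mRNA, and Dcps the scavenger decapping enzyme.

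From 15 to 120 min 15 of these 73 genes were lower and 2, Lsm5 and Skiv2l, were higher, where 11.3% of all genes were lower and 7.93% higher. The count of lower genes was 11 by DESeq2 (7.73% of all genes lower) and 2 with the labelled part scaled up (1.24%). It was 28 in a fit of only these groups (18.3%) and 24 with library-size scaling (16.1%). Leaving out 1 of the 15 or 120 min libraries gave fewer lower genes, in this list and over all genes. Among the called genes were Casc3, an exon junction complex protein, at -0.60 ± 0.0752 (SE, edgeR adjusted p = 4.56e-05) and Lsm5 at 0.44 ± 0.117 (SE, edgeR adjusted p = 0.0124). Casc3 was at 68.1 and 69.4 CPM at 15 min and 48.8 and 42.0 at 120 min, with an NTR of 0.908 and 0.847. Against no4sU 16 were lower and 2, Btg2 and Gspt1, were higher, where 8.78% of all genes were lower and 5.43% higher. Here the count of lower genes was 8 by DESeq2 (5.27% of all genes lower) and 2 with the labelled part scaled up (0.854%). In a fit of only these groups it was 2 (1.33%). It was smaller without either 120 min library or no4sU replicate B and larger without no4sU replicate A, as it was over all genes. Falls of genes with a high NTR were seen in this list as well, but not for all of them. Of the 3 highest in NTR, Noct was lower from 15 to 120 min, at -0.32 ± 0.101 (SE, edgeR adjusted p = 0.0315). Btg2 was at 0.44 ± 0.168 (SE, edgeR adjusted p = 0.0730) and Zc3h12a at -0.14 ± 0.131 (SE, edgeR adjusted p = 0.470).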

How the data were processed

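NIH-3T3 RNA was sequenced in 12 libraries, 2 replicates in each of 6 groups, and groups and replicate letters were taken from the sample titles. The labels do not say whether replicates were separate cultures, so p-values measure only the spread between these libraries, which may be technical. Cutadapt, Bowtie2 2.3.0 and STAR 2.7.10b are named, without roles, in the submitters' processing notes. The counter, build, annotation and strand setting were not given in the sources used here. Estimated counts, deposited by the authors per gene and library, were unscaled, and 20.4% were not whole (29.5% for the decay genes, tolerance 1e-06). They were rounded to whole numbers here. The NTR was deposited as a fraction per labelled library, with posterior maximum (used here), posterior mean and a 90% interval between the 0.05 and 0.95 quantiles, per the file headers. The deposited alpha and beta columns, a score without fixed range, and the conversion counts were not used. There were 0 columns of other samples.

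Counts were fitted with edgeR 4.0.16 in R 4.3.3 (filterByExpr, 11564 genes; TMM factors 0.970 to 1.02; quasi-likelihood fit of all 12 libraries without covariates, common biological coefficient of variation 4.44%; Benjamini-Hochberg adjusted p below 0.05 over all genes). SEs of log2 fold changes were |log2 fold change|/sqrt(F). All 44 genes were tested. Alternatives were DESeq2 1.42.0, library-size scaling, no filter, the replicate block, a fit of only the groups compared, scaling up the labelled part, and leaving out libraries. A fit without the no4sU libraries was added after the data had been seen. RPKM was the scaled CPM per kilobase of the deposited length. Half-lives were taken for NTR between 0.01 and 0.99. The sign-flip test ran in Python 3.11.15 with numpy 2.4.6 over 1024 sign patterns. The fit and the test were checked on simulated data. Reference transcripts were the principal isoform with the longest 3' UTR. Values are given in every library for the 10 largest called changes among genes averaging at least 100 reads, the 4 highest and 4 lowest NTR and the paralog pairs. Upf1 and Dcp1b are named besides as called genes. The 44 genes, their roles, the lists and the tests were chosen with earlier results of these data known. Results for 1 gene of the wider list are not reported here.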

Additional observations from a re-analysis of the deposited data

How the results depend on the processing

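The counts of called decay genes depended on the fit. From 15 to 120 min (12 called, 19.3% of all genes) DESeq2 gave 7 (12.7% of all genes) and scaling up the labelled part 2 (2.07%). A fit of only these groups gave 20, and a fit without the no4sU libraries, added after the data had been seen, 20. In these last fits Pabpc1 and Pabpc4 were higher and 18 genes lower, where 33.6% and 32.1% of all genes were called. Leaving out 1 library gave fewer called genes, among these and over all genes. At 120 min against no4sU (9 called) the values were 5 by DESeq2, 2 with the labelled part scaled up, 2 in a fit of only these groups and 5 to 19 when leaving out 1 library. Over all genes 14.2% were called in that contrast. The share was 9.16% by DESeq2, 1.61% with the labelled part scaled up and 1.5% in a fit of only these groups. It was larger when a no4sU library was left out and smaller when a 120 min library was left out. The counts of decay genes thus varied along with the share over all genes. From 15 to 90 min (3 called, 1.06% of all genes) DESeq2 gave 1 (0.917%). With the labelled part scaled up edgeR called 0 (0.0603%), with 4 decay genes at an unadjusted p under 0.05. A fit of only these groups gave 9 (9.6%) and a fit without the no4sU libraries 8 (9.33%). Leaving out 1 library gave fewer calls, here and over all genes. The cause of these differences was not tested. Library-size scaling gave 14, 13 and 4 (19.8%, 16.3% and 3.02% of all genes), in the same order. No filter on low counts gave 14, 10 and 3 (14%, 11.6% and 2.41%). With a replicate block the counts were 13, 9 and 3 (20%, 15% and 1.35% of all genes). From 15 to 120 min the block added Dis3 as lower and Pabpc1 as higher (edgeR adjusted p = 0.0434) and Edc3 lost its call (0.0530), and without a filter Pabpc1 was higher, Dis3 and Smg1 were added as lower and Edc3 lost its call. The labels do not pair replicate letters between groups, and the A minus B differences of 2 groups had correlations from -0.129 to 0.150 across genes.

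The median NTR at 120 min was 0.401 over the 11 decay genes averaging at least 1000 reads per library and 0.431 with no minimum. Over all genes the medians were 0.267 and 0.368 under the same conditions. Scaling up the labelled part changed the sign of Tob2 (0.0488 ± 0.0683, SE) and Pan3 (0.000145 ± 0.0838), both within their SE of 0. Of the other alternatives for single log2 fold changes, 88 kept direction and call and 41 lost the call. The paralog pairs past the threshold were 5 of 7 with the posterior mean, and 6 of 7 from 30 min on, whether as NTR or as a loss rate. The difference of Tob1 and Tob2 was 0.0247 without replicate B, reversed, and -0.0954 without replicate A, and 5 libraries cannot give an exact p below 0.0625. Depth limits Dcp1b, Tob1 and all NTR at 15 min.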

Other observations

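Cnot10 had the lowest NTR of the Ccr4-Not genes at 120 min, 0.200 and 0.202, and was the only 1 of them with a longer apparent half-life at 120 than at 60 min, a pattern noticed in the data and not tested. Its apparent half-life was 288 ± 36.2 min (SD, n = 2) from the 60 min libraries and 371 ± 2.20 min from the 120 min libraries, where 37 of 41 decay genes had a shorter one at 120 min. Its level was 52.0 and 54.6 CPM at 15 min and 59.9 and 57.0 CPM at 120 min.

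Smg9, a partner of the Smg1 kinase, combined an NTR of 0.624 and 0.482 at 120 min with log2 fold changes of 0.20 ± 0.0922 (SE) from 15 to 90 min and 0.11 ± 0.0912 from 15 to 120 min, neither past the threshold (edgeR adjusted p = 0.295 and 0.429). Its replicates at 120 min lay further apart in NTR than those of any other gene of nonsense-mediated decay.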
